A study of Citrus sinensis with 6 samples.

Results

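Meristem and leaf polarity regulators were followed through self-pruning, the shedding of the shoot tip, in sweet orange (Citrus sinensis). The group comprised 7 of the 30171 citrus probe sets on the Affymetrix Citrus Genome GeneChip. Of these, 3 carry the names of homeobox genes (PDF2-like, BEL1-like 11-like and ATHB-51-like), 1 that of YABBY1, a pair those of the AINTEGUMENTA-like genes AIL1-like and AIL5-like, and 1 that of Asymmetric leaves1 (AS1-like). They were picked by probe set identifier from the genes that the study had annotated because of large changes over the stages on these same arrays. Their differences between stages are therefore given as a description, with no test.

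Shoot tips with the abscission zone, the layer at which the tip is shed, were taken from spring shoots of field-grown adult 'Cara Cara' navel orange trees. Stage 1 was 3 days before self-pruning, stage 2 its beginning and stage 3 was 7 days after it, and no treatment is named. The labels call the tissue shoot meristems. Each stage had 2 arrays that the labels call biological replicates. The methods name separate groups of trees, but the labels do not tie an array to a group of trees, so the spread between arrays may be in part technical. The methods describe the region taken, the tip with the zone, in the same words for all stages. In such bulk samples, fewer cells of a type and less RNA per cell cannot be told apart.

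Leaves arise on the flanks of the shoot apical meristem, whose cells are kept undifferentiated by KNOX homeodomain proteins working in pairs with BELL homeodomain proteins. In Arabidopsis, AS1, a MYB-type protein, keeps KNOX genes off in the leaf primordium, and YABBY proteins act on the lower side of the young leaf. AINTEGUMENTA-like proteins promote growth and cell division in young organs, and PDF2, a class IV homeodomain leucine zipper (HD-Zip) protein, maintains the identity of the outer cell layer.

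For 3 of the 7 probe sets the study designed real-time PCR primers. They are shown because, among the sequences used here, they are the only ones tied to members, and they identify the transcripts by sequence rather than by a homologue's name. All are in lower case, 5′ to 3′, with no part marked, and their places in the genome were not analysed here.
ATHB-51-like sense: cctcgtcaaattgctgtg
ATHB-51-like antisense: gtgcttgtcccttgttct
YABBY1 sense: gcccacttccctcacatc
YABBY1 antisense: caggagcaaagaaaccat
AIL1-like sense: gcaagctagaataggaagggtt
AIL1-like antisense: caaggtcactggcaatcag
The primers were 18 to 22 bases long with a GC content of 44.4% to 61.1%, and the PCR measurements made with them were not used here.

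All 7 probe sets were lower at stage 2 than at stage 1 and lower again at stage 3, with no overlap between the arrays of any stages. Over all citrus probe sets, 16.5% had this falling order without overlap. The median log2 difference of the 7 was -0.71 at stage 2 and -4.20 at stage 3 against stage 1, beside 0.010 and -0.038 over all citrus probe sets. From stage 2 to stage 3 the median was -3.49, beside -0.055. The signals are log2 values from robust multi-array average (RMA), so that a difference of -1 is a halving of the signal, and each difference is given with its standard error (SE) from limma with n = 2 arrays per stage.

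**Figure D1:**
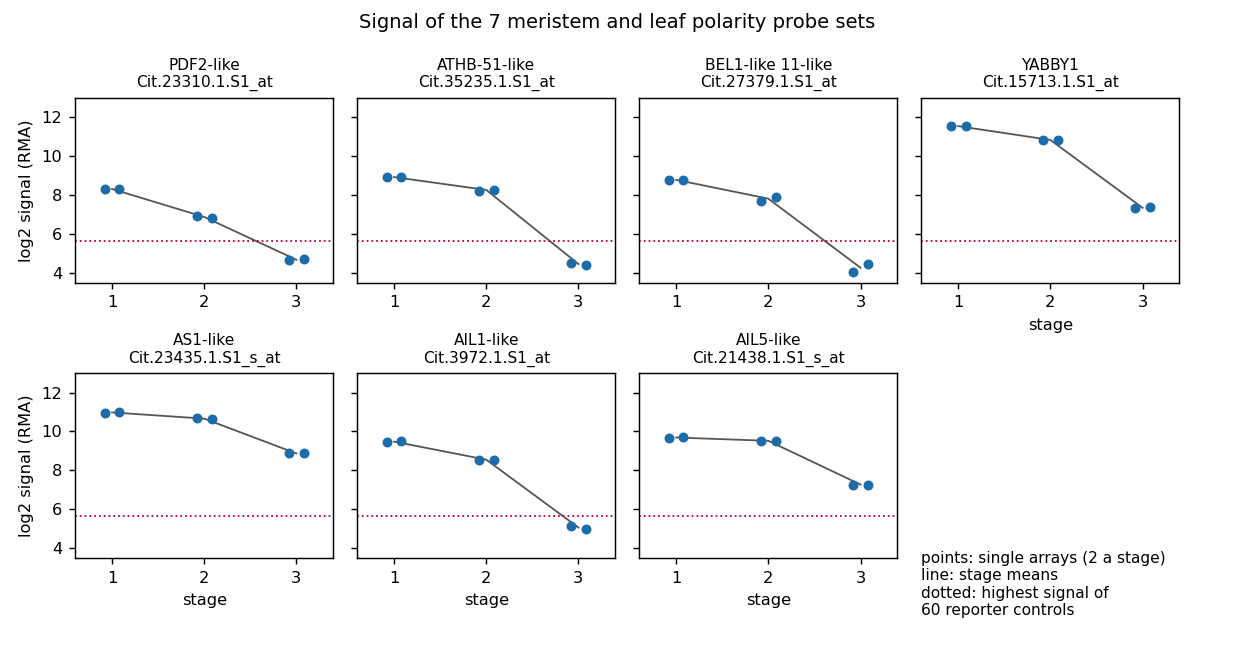
Log2 RMA signal (vertical axis) of each of the 7 probe sets on the 2 arrays of each stage (horizontal axis), with lines through the stage means. At stage 3, 4 of the 7 lie below the dotted line at 5.67, the highest signal of the 60 reporter controls, and 3 lie above it.

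Among the homeobox genes, PDF2-like (Cit.23310.1.S1_at) had signals of 8.30 and 8.34 at stage 1, 6.92 and 6.83 at stage 2, and 4.65 and 4.70 at stage 3. It was the member with the largest early difference, at -1.44 against stage 1 (SE 0.044), and reached -3.64 at stage 3. At stage 2 its signal was 36.8% of that at stage 1.

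ATHB-51-like (Cit.35235.1.S1_at) is named after an Arabidopsis class I HD-Zip protein, also called LATE MERISTEM IDENTITY1, that acts in floral meristem identity and leaf form. Its signals were 8.92 and 8.94, then 8.24 and 8.29, then 4.53 and 4.40 at stages 1, 2 and 3. The difference from stage 1 was -0.67 at stage 2 (SE 0.052) and -4.47 at stage 3, which left 4.52% of the stage 1 signal. Most of this fall lay between stages 2 and 3, where the difference of -3.80 was the largest among the 7 but overlapped with that of BEL1-like 11-like between arrays.

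BEL1-like 11-like (Cit.27379.1.S1_at), of the BELL family, had signals of 8.80 and 8.79 at stage 1, 7.72 and 7.93 at stage 2, and 4.07 and 4.46 at stage 3. Its arrays lay further apart within stages 2 and 3 than those of any other member, which shows in its SE of 0.15. The differences from stage 1 were -0.97 and -4.52, the latter the largest at stage 3, where 4.34% of the stage 1 signal was left. Leaving out either stage 3 array moved the difference from stage 1 by up to 0.198, the largest such shift among the members.

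YABBY1 (Cit.15713.1.S1_at) and AS1-like (Cit.23435.1.S1_s_at) are the leaf polarity members. YABBY1 had signals of 11.55 and 11.56 at stage 1, 10.82 and 10.86 at stage 2, and 7.33 and 7.37 at stage 3, with differences from stage 1 of -0.71 and -4.20 (SE 0.029). AS1-like had signals of 10.97 and 10.99, then 10.68 and 10.65, then 8.87 and 8.87, with differences of -0.32 and -2.11 (SE 0.026). YABBY1 was thus left with 5.42% of its stage 1 signal and AS1-like with 23.2%, the smallest fall of the group at stage 3.

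The AINTEGUMENTA-like members differed from each other in the size of their falls. AIL1-like (Cit.3972.1.S1_at) had signals of 9.45 and 9.51 at stage 1, 8.55 and 8.55 at stage 2, and 5.14 and 4.98 at stage 3, with differences from stage 1 of -0.93 and -4.41 (SE 0.063). AIL5-like (Cit.21438.1.S1_s_at) had signals of 9.69 and 9.70, then 9.51 and 9.53, then 7.27 and 7.26, with differences of -0.17 and -2.42 (SE 0.025). At stage 2, AIL5-like still had 88.6% of its stage 1 signal and AIL1-like 52.5%, and at stage 3 they had 18.6% and 4.69%. The AIL5-like probe set is of the _s_at kind, which match more than 1 transcript, so its signals may mix transcripts.

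**Figure D2:**
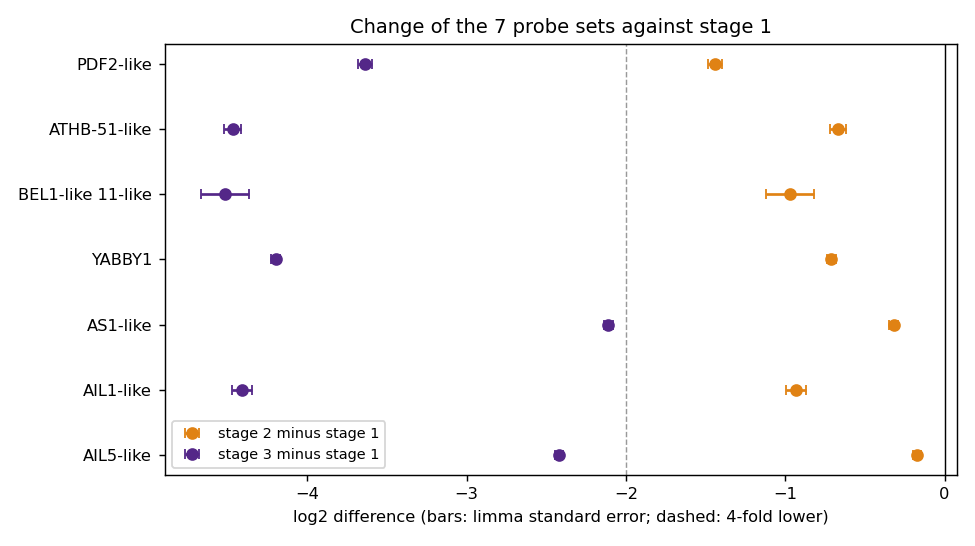
Log2 difference from stage 1 (horizontal axis) of each of the 7 probe sets at stage 2 and at stage 3, with bars for the limma standard error and n = 2 arrays per stage. At stage 2 the points lie between -1.44 and -0.17, and at stage 3 between -4.52 and -2.11, all beyond the dashed line for 4-fold.

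In the order of the falls at stage 2, PDF2-like came first, followed by BEL1-like 11-like and AIL1-like, whose array-to-array differences overlapped, by YABBY1 and ATHB-51-like, which also overlapped, and then by AS1-like and AIL5-like. At stage 3, BEL1-like 11-like overlapped with ATHB-51-like and ATHB-51-like with AIL1-like at the top, followed by YABBY1, PDF2-like, AIL5-like and AS1-like without overlap between neighbours. The order at stage 3 is uncertain for PDF2-like, BEL1-like 11-like, ATHB-51-like and AIL1-like, since all 4 ended below the highest reporter control.

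The thresholds of the methods were a fold change of 4 or more with an unadjusted p no higher than 0.001. They were applied here to p-values from limma, whereas the methods name Significance Analysis of Microarrays. All 7 passed as lower at stage 3 than at stage 1, where 1.25% of all citrus probe sets did. At stage 2, 0 of the 7 passed against stage 1 (0.361% of all did), and between stages 2 and 3, 6 of the 7 passed (0.948% of all did), all except AS1-like. Since the study chose the genes for large changes on these same arrays, nothing is read from these 3 counts. Nearest to 4-fold on the inside was AS1-like at -2.11. Among the other probe sets that the array itself names by family, the nearest on the outside was the zinc-finger homeodomain (ZF-HD) Cit.13520.1.S1_at at -1.90. The nearest of them on the inside was ATHB-7-like (Cit.29688.1.S1_s_at) at -2.81.

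The ends of some of these falls lie where the array cannot show a level. At stage 3, PDF2-like, BEL1-like 11-like, ATHB-51-like and AIL1-like were below the highest of 60 reporter controls (5.67). The 23 random-sequence controls read higher, with a median of 7.90 and a range of 7.07 to 10.5, so that by them every member ended within or below the range of controls, and only YABBY1 and AS1-like started above it. The size of a fall that ends there is uncertain.

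Other probe sets with the members' names were read on the same arrays. They were named from the same annotation of changed genes unless the array itself names them, and are given as a description. A probe set without a large change could not get a name from that annotation. Falls among probe sets named in this way are therefore no independent support for those of the members. A further YABBY1 probe set (Cit.6654.1.S1_at) had signals of 10.55 and 10.59 at stage 1, 10.13 and 10.19 at stage 2, and 7.21 and 7.29 at stage 3, which gives differences from stage 1 of -0.41 and -3.32 (SE 0.043). A further BEL1-like 11-like probe set (Cit.31410.1.S1_at) went from 7.72 and 7.60 through 7.08 and 7.14 to 4.35 and 4.52, with differences of -0.55 and -3.23 (SE 0.077). Its stage 3 signals lay below the highest reporter control (5.67), so the size of that fall is uncertain. For AIL5-like (Cit.12334.1.S1_s_at) the stage means were 10.97, 10.69 and 8.61, with differences of -0.27 and -2.36 (SE 0.044). It is of the _s_at kind, as the AIL5-like member is, and whether they read the same transcripts was not tested. All of these fell at both steps without overlap between arrays, but a large change was a condition of their being named.

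The probe sets named after AS1 or its snapdragon counterpart PHANTASTICA did not move alike. AS1-like Cit.11530.1.S1_at went from 12.21 and 12.23 through 11.99 and 12.03 to 10.33 and 10.37, and Cit.11529.1.S1_s_at from 11.75 and 11.75 through 11.51 and 11.49 to 9.90 and 9.93. Their stage 3 differences were -1.87 (SE 0.031) and -1.84 (SE 0.027), beside -2.11 in the member. Cit.4283.1.S1_at, named after PHANTASTICA on the array, read 11.85 and 11.88, then 11.93 and 11.94, then 11.56 and 11.56, a difference of only -0.30 at stage 3 (SE 0.025, adjusted p = 4e-04 from limma). The other probe set of the member's own transcript, Cit.23435.1.S1_at, read 5.22 and 5.37, then 5.39 and 5.48, then 4.93 and 5.15. It lay below the highest reporter control at every stage, and its stage 3 difference of -0.25 (SE 0.096) did not pass the test (adjusted p = 0.0715 from limma). The fall of AS1-like was thus seen by probes of the _s_at kind, which match more than 1 transcript, and by Cit.11530.1.S1_at, but not by Cit.23435.1.S1_at.

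**Figure D3:**
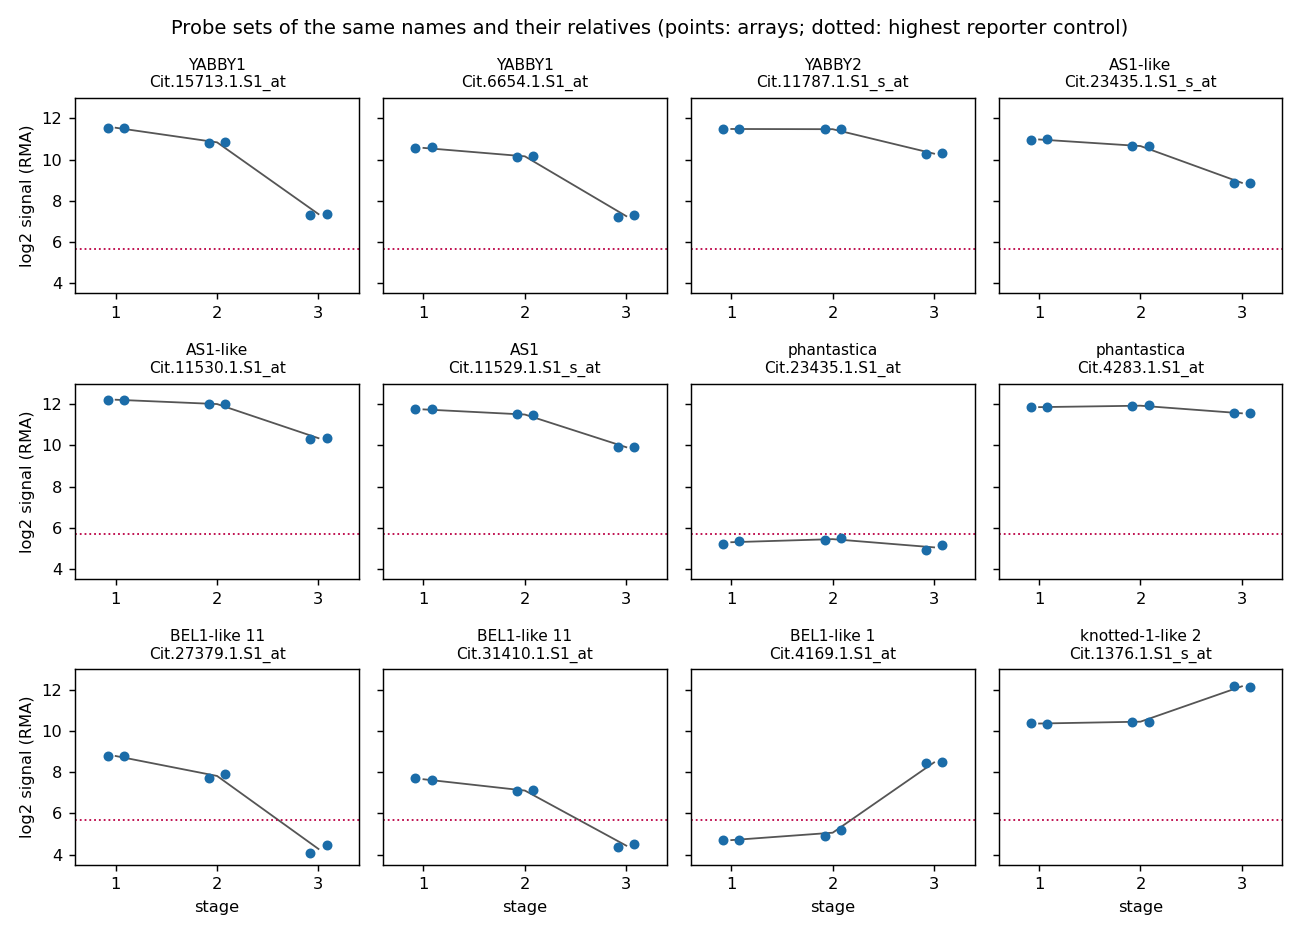
Log2 RMA signal (vertical axis) by stage (horizontal axis) of probe sets that share the members' names, and of YABBY2, BEL1-like 1-like and knotted-1-like 2-like, with points for arrays, lines through stage means and a dotted line at the highest reporter control (5.67). The YABBY1 and BEL1-like 11-like pairs fall at both steps, whereas BEL1-like 1-like Cit.4169.1.S1_at ends at 8.47 and 8.49 and knotted-1-like 2-like at 12.19 and 12.17, above their earlier stages.

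Other families of meristem and leaf regulators, the members' own among them, were then counted over the names that the array itself gives, without the 7 members. The members' own families (BELL, HD-Zip, YABBY and AS1 or PHANTASTICA) held 27 of the 90 probe sets, and the array names no further AINTEGUMENTA-like probe set. Of the 27, 6 (22.2%) rose and 14 (51.9%) fell at stage 3 against stage 1, beside 29.9% and 35.9% of all citrus probe sets. Over all 90 probe sets of 12 lists, 29 rose and 18 fell at stage 2 against stage 1 (adjusted p under 0.05 from limma, where 20.2% and 21.5% of all citrus probe sets did). At stage 3 against stage 1, 25 (27.8%) rose and 42 (46.7%) fell, beside 29.9% and 35.9% of all. Between stages 2 and 3, 27 rose and 42 fell, beside 29.1% and 36.5%. Their median log2 difference at stage 3 was -0.13, and 69 of the 90 exceeded every reporter control in the mean of at least 1 stage. Of the 90, 13 fell through the 3 stages without overlap between arrays and 14 rose in that way, beside 16.5% and 12.9% of all. With the thresholds of the methods the lists held 1 rise and 5 falls at stage 3 against stage 1, and rises of that size made up 0.0729%, 2.16% and 1.87% of all citrus probe sets at stage 2 against 1, 3 against 1 and 3 against 2.

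More array-named BELL probe sets rose than fell at stage 3, the other way from BEL1-like 11-like, and the array names only 1 KNOX probe set. Both KNOX probe sets described here lay above the reporter controls at every stage. Of 9 BELL probe sets, 5 (55.6%) rose and 1 (11.1%) fell at stage 3 against stage 1, beside 29.9% and 35.9% of all citrus probe sets. The 1 that fell was the further BEL1-like 11-like probe set. BEL1-like 1-like (Cit.4169.1.S1_at) rose from signals of 4.71 and 4.70 at stage 1, below the reporter controls, and 4.90 and 5.21 at stage 2 to 8.47 and 8.49 at stage 3 (difference 3.77, SE 0.11, adjusted p = 1.35e-05 from limma). Another probe set of that name in the annotation of changed genes, Cit.12189.1.S1_s_at, was higher at both steps, with 7.58 and 7.62, then 8.36 and 8.33, then 11.66 and 11.65. Cit.1376.1.S1_s_at is named as a KNOX gene, knotted-1-like 2-like, only in the annotation of changed genes, and is given as a description. Its signals went from 10.38 and 10.36 through 10.46 and 10.45 to 12.19 and 12.17 (stage 3 difference 1.81, SE 0.025). The probe set named knotted on the array (Cit.10480.1.S1_at) rose by 0.70 (SE 0.028, adjusted p = 3.68e-05 from limma). Both stage 3 arrays lay above all 4 earlier arrays in each of these 4 probe sets.

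Of 3 YABBY probe sets, 2 fell at stage 3 against stage 1, the further YABBY1 probe set and YABBY2, where 35.9% of all citrus probe sets fell. Cit.30373.1.S1_at (difference 0.34, SE 0.15) did not pass the test, and its signals never exceeded the reporter controls. YABBY2 (Cit.11787.1.S1_s_at) read 11.48 and 11.51, then 11.48 and 11.48, then 10.27 and 10.31, so that it differed by -0.02 at stage 2 (adjusted p = 0.698 from limma) and fell by 1.21 at stage 3 (SE 0.029, adjusted p = 9.13e-06 from limma). Of 5 probe sets of the TCP family, which controls leaf growth and form, 4 (80.0%) fell and 0 rose at stage 3, beside 35.9% and 29.9% of all. Without adjustment of p, 0 rose as well. The largest fall among them was that of TCP4-like (Cit.14722.1.S1_at), from 10.59 and 10.62 through 10.54 and 10.56 to 7.63 and 7.68 (difference -2.95, SE 0.030). PHAVOLUTA (Cit.7481.1.S1_at), a class III HD-Zip gene of the upper leaf side in Arabidopsis, differed by 0.01 at stage 2 and fell by 1.15 at stage 3 (SE 0.050, adjusted p = 4.47e-05 from limma). Both probe sets named ZF-HD on the array fell at stage 3, Cit.13520.1.S1_at by 1.90 and Cit.4603.1.S1_at by 1.75.

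Among HD-Zip probe sets, 9 of 12 (75.0%) fell and 1 (8.33%) rose at stage 3 against stage 1, beside 35.9% and 29.9% of all citrus probe sets. The largest fall was that of ATHB-7-like (Cit.29688.1.S1_s_at), named after an Arabidopsis gene of the response to water deficit, from 8.26 and 8.28 to 6.01 and 6.01 and then 5.41 and 5.51. The rise was that of Cit.21036.1.S1_s_at, by 0.35 (SE 0.025). ATHB-40 (Cit.30657.1.S1_s_at), which the array names only as a homeodomain protein, had fallen by 4.04 at stage 2 and lay 3.70 below stage 1 at stage 3 (SE 0.075). Its signals at stages 2 and 3, and those of ATHB-7-like at stage 3, lay below the highest reporter control. The sizes of these falls are uncertain. HAT5-like (Cit.7103.1.S1_at) went from 7.89 and 7.87 down to 5.77 and 5.78 at stage 2 and back to 7.42 and 7.58 at stage 3. In the members PDF2-like and ATHB-51-like the step between stages 2 and 3 was the larger. It was also the larger in PHAVOLUTA and in other HD-Zip probe sets, so it does not set these members apart.

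The 35 homeobox probe sets whose shortened array names do not give a class rose more often than they fell when self-pruning began. At stage 2 against stage 1, 22 of them (62.9%) rose and 5 (14.3%) fell (median 0.22), beside 20.2% and 21.5% of all citrus probe sets. At stage 3 there were 12 rises (34.3%) and 15 falls (42.9%) (median -0.09), beside 29.9% and 35.9%. Some transcripts have more than 1 probe set in this list, so the counts are not of separate genes. The stage 2 rises were small, the largest being 0.73 in Cit.28927.1.S1_at. Of 7 probe sets of LOB-domain genes, which act at organ boundaries, 3 (42.9%) rose and 1 (14.3%) fell at stage 3. The largest rise was 1.43 in Cit.6522.1.S1_at, and Cit.13586.1.S1_at (LOB domain 38-like) differed by -1.81. Transcript 22754.1 is in this list with more than 1 probe set. Of 11 probe sets of argonaute genes, which act with small RNAs, 2 (18.2%) rose and 5 (45.5%) fell at stage 3. The larger rise was 0.23 (Cit.13518.1.S1_at), and the largest fall was 1.20 (Cit.6156.1.S1_at). The receptor gene named CLAVATA1 (Cit.37590.1.S1_at), of stem cell signalling, fell by 1.01, and WOX11 (Cit.16326.1.S1_at) rose by 0.45 from signals that never exceeded the reporter controls.

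**Figure D4:**
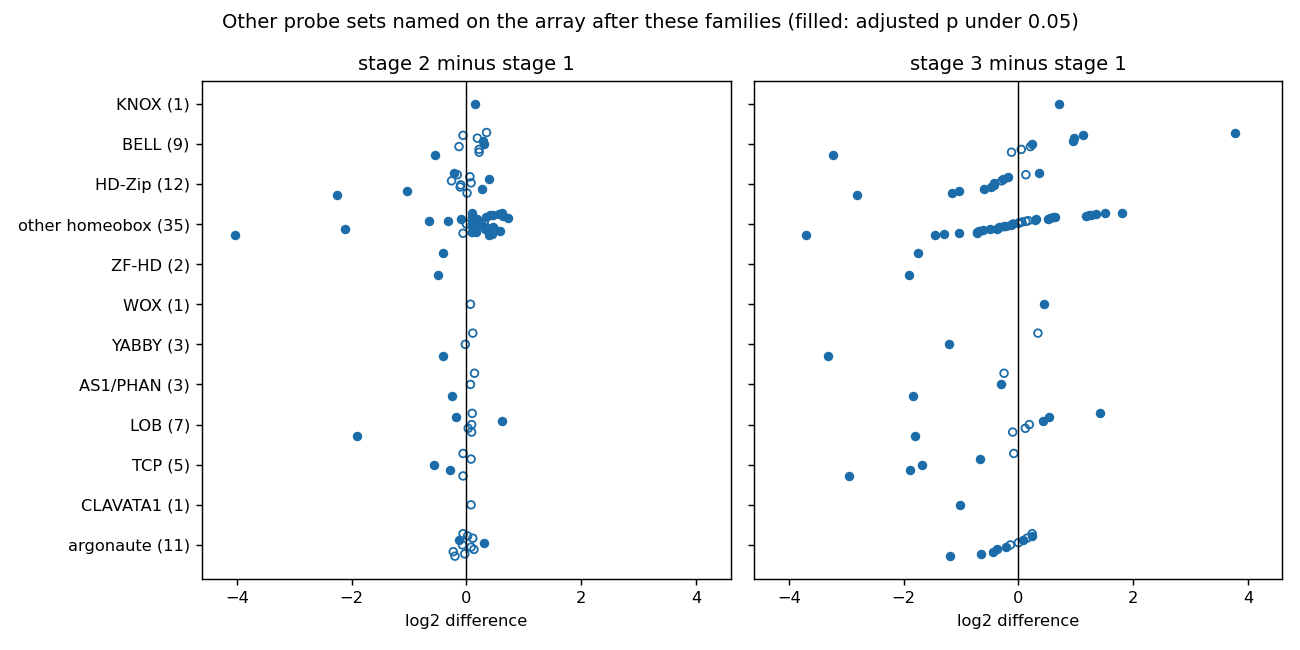
Log2 difference from stage 1 (horizontal axis) at stage 2 and stage 3 for the 90 family probe sets by list (vertical axis, number of probe sets in brackets), with filled points for an adjusted p under 0.05 from limma. At stage 3, BELL holds 5 rises and 1 fall, HD-Zip 1 rise and 9 falls, and TCP 0 rises and 4 falls. Over all citrus probe sets, 29.9% rose and 35.9% fell.

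Some probe sets that were named from the annotation of changed genes alone are given as a description. ZF-HD Cit.15501.1.S1_at went from 10.91 and 10.91 to 6.80 and 7.03 at stage 3, and Cit.30553.1.S1_s_at of the same homologue's name went the other way, from 5.37 and 5.41 to 7.87 and 7.77. The argonaute protein group probe set Cit.25499.1.S1_at read 8.07 and 8.08, then 7.28 and 7.26, then 5.93 and 6.06. The ZF-HD pair shows that probe sets of a shared homologue name need not share a direction on these arrays.

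Courses near those of the members were sought among 1084 probe sets with an informative homologue name. Those names come from the study's annotation of genes changed on these same arrays, so the rest of the array was not searched. Nearness was the root mean square (RMS) of the distances between the differences from stage 1, at stages 2 and 3. BEL1-like 11-like and AIL1-like were each other's nearest, at an RMS distance of 0.082. YABBY1 was nearest to FORKED1 (Cit.32389.1.S1_at), a gene of leaf vein patterning in Arabidopsis, at 0.067, and growth-regulating factor 1-like (Cit.24314.1.S1_s_at), of a family that promotes leaf growth, was second for ATHB-51-like at 0.15. PDF2-like had no close match among these changed genes, with a sulfur-rich protein (Cit.9671.1.S1_at) at 0.23 and growth-regulating factor 5-like (Cit.16031.1.S1_at) at 0.39. The smaller falls had closer matches, AIL5-like with membrane-associated kinase regulator 2-like (Cit.12015.1.S1_at) at 0.012 and AS1-like with a serine arginine repetitive matrix protein 2-like gene (Cit.24048.1.S1_at) at 0.025. The distances rest on 3 stage means and describe likeness of course only.

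Markers of other cells moved over the same stages, and their part in the falls of the members was not tested. At stage 3 against stage 1, 35.9% of all citrus probe sets fell and 29.9% rose (adjusted p under 0.05 from limma). Of 42 histone and cyclin B probe sets, which mark dividing cells, 35 fell and 2 rose at stage 3, and their summed linear signal went from 120308 to 121519 at stage 1 and 121192 to 121756 at stage 2 down to 54063 to 54082. Of 12 epidermis probe sets, 7 fell and 3 rose, with a summed signal of 41040 to 41260 at stage 1 and 36054 to 36164 at stage 3. Of 8 green mesophyll probe sets, 6 fell and 0 rose, with 1 rising when p was not adjusted (summed signal 32961 to 33531 and 26662 to 26805), of 19 senescence-associated ones 11 rose and 4 fell (36842 to 37089 and 46123 to 46174), and of 6 secondary wall ones 2 rose and 2 fell (3276 to 3328 and 1165 to 1191, with 150 to 161 at stage 2). No list was at 0. The members were chosen for large changes on these same arrays and the lists were not, so their falls are not set against these sums. As a sign of RNA quality, the 3′ minus 5′ signal of actin was 1.87 to 1.94 at stages 1 and 2 and 1.62 to 1.66 at stage 3. That of ubiquitin was 0.182 to 0.276 at stages 1 and 2 and -0.179 to -0.115 at stage 3, so both measures were lower at stage 3. Over all citrus probe sets, the 2 arrays of each stage correlated at 0.999.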

How the data were processed

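RNA from shoot tips was hybridized to 6 arrays, 2 at each of 3 stages. The authors made the deposited log2 signals by RMA (their methods also name Microarray Suite 5.0). A further deposited table holds the authors' stage means, whose log2 values differ from means of the signals by at most 7e-05, and their p-values and ratios, which were not used. After 224 control probe sets were left out, limma 3.58.1 in R 4.3.3 was fitted to all 6 arrays without covariates, and p-values were adjusted by Benjamini-Hochberg over 30171 citrus probe sets. The fit was tested on simulated data. Tables and figures used Python 3.11.15, numpy 2.4.6, pandas 2.3.3 and matplotlib 3.10.9.

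The members and lists were chosen with earlier results of these data known. Lists use the shortened gene names on the array, and stems that also match other families (NAC, homeotic, chaperonin TCP-1) were dropped once the names were seen. The text names the members, probe sets sharing their names, the largest rise and fall of each list at stage 3, KNOX and BELL probe sets, homologue-named relatives, the nearest courses and those next to 4-fold. Cit.28927.1.S1_at and HAT5-like were added after their values were seen. Other scalings, fits, filters, thresholds and left-out arrays were tried as alternatives. The number of arrays limits the precision. No genome sequence was used here.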

Additional observations from a re-analysis of the deposited data

How the results depend on the processing

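The falls of the 7 members kept their direction under each scaling and with each array left out. Centring each array on its median gave a median of -0.66 instead of -0.71 between stages 2 and 1. Over the arrays left out in turn, the medians ranged from -0.73 to -0.70 (stage 2 against 1), -4.22 to -4.19 (stage 3 against 1) and -3.49 to -3.36 (stage 3 against 2). The family counts ranged from 22 to 25 rises and 14 to 18 falls, from 23 to 25 and 39 to 42, and from 24 to 26 and 38 to 40 in the same order. With the thresholds of the methods (4-fold, unadjusted p no higher than 0.001), the family counts were 0 rises and 3 falls at stage 2 against 1, 1 and 5 at stage 3 against 1, and 1 and 3 at stage 3 against 2, as a stricter threshold gives. With the replicate number as a block they were 36 and 21, 30 and 46, and 29 and 47. Same-numbered arrays of different stages deviated together (correlation 0.463 to 0.561 across probe sets, which are not independent). The labels do not say what such arrays share besides the number, and the reason was not tested. With homologue names added, chosen after seeing the data, the counts at stage 3 against 1 were 27 and 46, and with only probe sets above the reporter controls, also chosen then, 24 and 40. No family count moved by over 1.5 times under these or the other alternatives (scaling, moderation, arrays in the fit, filter on mean signal, controls kept), apart from the thresholds of the methods. Signals near the controls limit what can be said of the size of falls.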
